A study of Mus musculus with 6 samples.

Results

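Macrophage, dendritic cell and neutrophil marker genes were followed in RNA from tumor endothelial cells (TECs) that had been sorted away from leukocytes. Their level was taken as an indirect measure of myeloid RNA carried along with the sorted cells. It is indirect because Cd14 and Csf2rb have also been described in endothelial cells, and 23 of the markers were below the low-signal filter of the study. The set is a list of 34 gene names, taken as named and not by level, and 32 of them were found by name among the 750 genes of the deposited table. Ccr1 and Xcr1 were not found and are not analysed here. Of the 32 genes, 16 are listed as macrophage and monocyte markers, 8 as neutrophil markers, 3 as dendritic cell markers and 5 as shared by several myeloid cell types. The lists are not exclusive, and genes of the neutrophil list such as Trem1 are also made by monocytes.

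Tumors were grown from B16-F10, a mouse melanoma line, by subcutaneous injection of 250000 cells in C57BL/6 mice, and were taken on day 18. Atg5BECKO mice carried Pdgfb-CreERT2, a tamoxifen-inducible Cre driven in blood endothelium, together with the Rosa26 tdTomato reporter and Atg5 fl/fl, and the WT mice were their littermates without Cre. Tamoxifen was given once a day for 5 days to induce the deletion, and females and males between 7 and 14 weeks of age were used in the study. Digested tumors were depleted of CD45+ cells and enriched for CD31+ cells on magnetic beads, and live CD45- CD31+ cells were then sorted. The paper also describes the profiled cells as Ter119- and reports a high purity of TECs after the sort, which was not measured again here. There were 3 WT samples (numbered 1, 4 and 6) and 3 Atg5BECKO samples (numbered 2, 3 and 5). Whether each sample came from a single mouse or from several pooled mice is not given in the sources used here, and the p-values cover only the spread among these 6 samples. Atg5 itself has no probe among the 750 genes, and the deletion was therefore not checked in these values.

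Myeloid cells are the macrophages, monocytes, neutrophils and dendritic cells of the innate immune system, and all of them carry CD45 on their surface. They are among the most abundant immune cells in many solid tumors, where macrophages often lie along blood vessels. Some genes of the list are less strict as markers than others, since Cd14 and Csf2rb have also been described in endothelial cells, whereas Itgam, the C1q chains and S100a8 are mainly products of myeloid cells.

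RNA was counted on the NanoString nCounter, in which a barcoded probe binds each transcript and the barcodes are counted without amplification. The deposited values are log2 counts divided by 1 factor per sample that the authors took from housekeeping genes. Whole counts were recovered from them, and the total over the 750 genes ran from 76784 in WT 6 to 244561 in WT 4, with the other 4 samples between 168454 and 198541. Pecam1, which encodes the CD31 used to sort the cells, lay between 12.47 and 12.85 on the log2 scale in the 6 samples and was higher than 99.7% of the genes of the table. Ptprc, which encodes CD45, lay between 3.35 and 5.66, with 16 to 56 counts per sample, and was below the low-signal filter of the study. The mean log2 level of 16 lymphocyte markers lay between 2.87 and 3.80, that of 11 fibroblast and mural cell markers between 4.62 and 5.72, and that of 2 melanocyte markers between 3.68 and 5.16.

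The level of the myeloid markers was first set against the low end of the table. The study tested 379 of the 750 genes after its software removed those too often near background, and 9 of the 32 myeloid markers were among them, namely Csf2rb, Csf1r, Sirpa, C1qb, Cd14, Clec4e, Cd163, Trem1 and Fpr1. The other 23 markers were among the 371 genes below this filter. The low end of the table in a sample was taken as the 95th percentile of the 348 low-signal genes that are not on the myeloid list, which was 5.25, 4.54 and 5.54 log2 in WT 1, WT 4 and WT 6 and 5.20, 4.90 and 5.38 in Atg5BECKO 2, 3 and 5. Only Csf1r, Csf2rb and Sirpa lay above it in every sample, 3 of 32 markers, against 37.3% of all 750 genes. Without WT 4, Cd163 and C1qb joined them and the number was 5. A further 11 markers were above it in some samples, and 18 were above it in none. The median gene of the table was higher than 22 of the 32 markers.

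**Figure D1:**
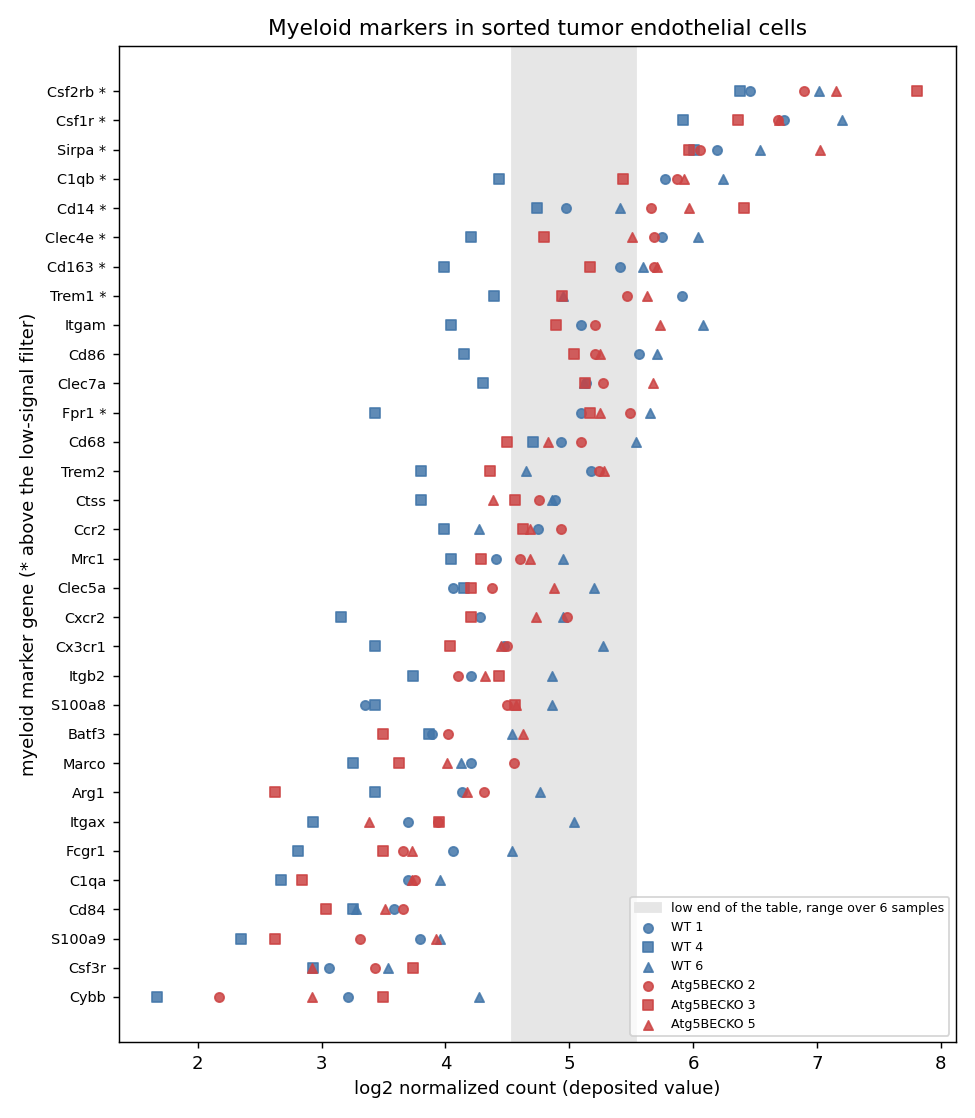
Deposited log2 normalized count (horizontal axis) of each of the 32 myeloid markers (vertical axis, ordered by mean) in the 3 WT samples (blue) and the 3 Atg5BECKO samples (red), 1 symbol per sample. The grey band is the range over the 6 samples of the low end of the table, 4.54 to 5.54, and the 3 genes at the top lie to the right of it in every sample.

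The leukocyte integrin chains were lower in the table than Csf1r, Csf2rb and Sirpa. Itgam, which encodes the CD11b chain of a leukocyte integrin, was at 5.10, 4.05 and 6.08 log2 in WT 1, 4 and 6 and at 5.21, 4.90 and 5.73 in Atg5BECKO 2, 3 and 5. It was the highest marker below the filter, was above the low end in 3 of 6 samples, and had 26 to 56 counts per sample. Itgb2, the beta chain with which CD11b and CD11c pair, was at 4.21, 3.74 and 4.86 in the WT samples and at 4.10, 4.43 and 4.32 in the Atg5BECKO samples, under the low end in all 6. Itgax, which encodes CD11c of dendritic cells and macrophages, was at 3.70, 2.93 and 5.04 against 3.94, 3.95 and 3.38, and was higher than only 20.5% of the genes of the table.

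Macrophage genes whose products are not on the surface differed in level. C1qb, a chain of the complement component C1q, was above the low end in 5 of 6 samples, with 34 to 65 counts, and its values are given with the comparison. Cd68, a glycoprotein of macrophage lysosomes, was at 4.93, 4.70 and 5.54 log2 in the WT samples and at 5.10, 4.50 and 4.83 in the Atg5BECKO samples, and was above the low end in WT 4 alone. Ctss, the lysosomal protease cathepsin S, was at 4.89, 3.81 and 4.86 against 4.76, 4.56 and 4.38, and was above it in none. C1qa, the partner chain of C1qb, was at 3.70, 2.67 and 3.95 against 3.76, 2.85 and 3.73, with 7 to 15 counts per sample. Among macrophage surface receptors, Mrc1, the mannose receptor, was at 4.41, 4.05 and 4.95 against 4.60, 4.29 and 4.68. Cx3cr1, the receptor of fractalkine on monocytes and macrophages, was at 4.47, 3.43 and 5.27 against 4.49, 4.04 and 4.45. The WT and Atg5BECKO samples overlapped for every one of these genes.

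Of the neutrophil pair S100a8 and S100a9, which form calprotectin, S100a8 was at 3.35, 3.43 and 4.86 log2 in the WT samples and at 4.49, 4.56 and 4.57 in the Atg5BECKO samples. S100a9 was at 3.79, 2.35 and 3.95 against 3.31, 2.62 and 3.93. Neither was above the low end in any sample, and WT 6 was the highest sample for both. The remaining 13 markers below the filter, Cd86, Clec7a, Trem2, Ccr2, Clec5a, Cxcr2, Batf3, Marco, Arg1, Fcgr1, Cd84, Csf3r and Cybb, had between 5 and 54 counts per sample, and Cybb, a subunit of the phagocyte NADPH oxidase, was the lowest marker, higher than 4.27% of the genes of the table.

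The markers below the filter also followed the low-signal genes from sample to sample. The median of the 348 low-signal genes that are not on the list was 3.98, 3.35 and 4.54 log2 in WT 1, 4 and 6 and 4.10, 3.79 and 4.09 in Atg5BECKO 2, 3 and 5. The median of the 23 markers was 4.21, 3.43 and 4.86 against 4.49, 4.21 and 4.45. It lay above the low-signal median by 0.23, 0.09 and 0.32 in the WT samples and by 0.40, 0.42 and 0.35 in the Atg5BECKO samples. In this difference every Atg5BECKO sample was above every WT sample, which was not tested and was not set beside other gene sets. Gene by gene, all 23 markers overlapped between the groups. The median of their log2 fold changes was 0.02, against 0.07 over the 348 low-signal genes. In recovered counts the low-signal genes had medians between 12 and 19, although the total counts of the samples differed far more.

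**Figure D2:**
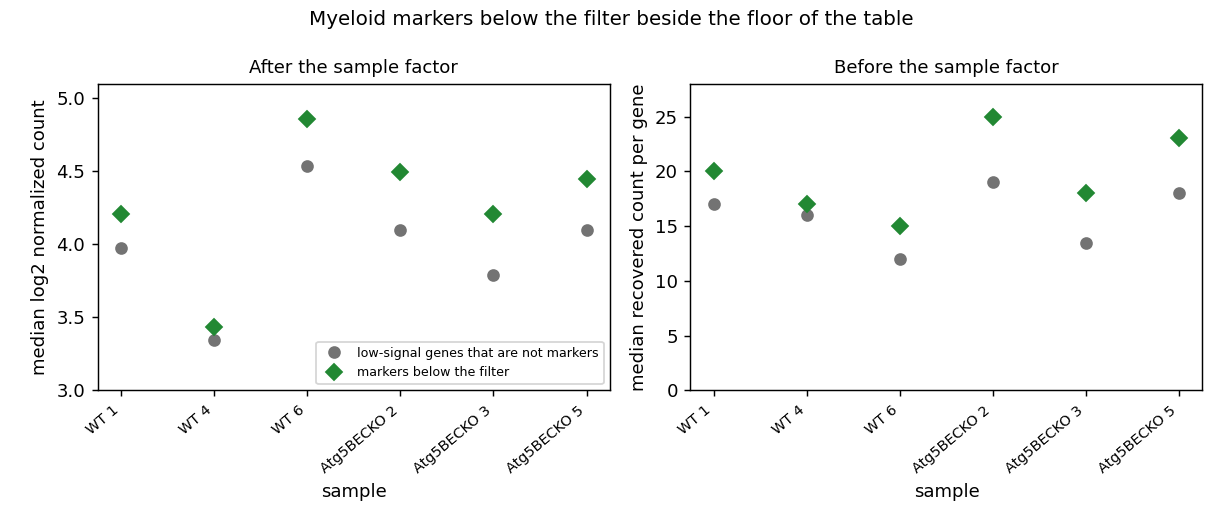
Median over the 23 myeloid markers below the filter (green diamonds) and over the 348 low-signal genes that are not markers (grey circles) in each of the 6 samples, on the left as deposited log2 normalized counts and on the right as recovered counts. On the left both medians are lowest in WT 4 and highest in WT 6, and on the right the low-signal median stays between 12 and 19.

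After the sample factor, 24 of the 32 markers had their lowest value in WT 4, and 18 had their highest in WT 6. Among the low-signal genes that are not on the list, 63.2% were lowest in WT 4 and 55.7% were highest in WT 6. WT 4 and WT 6 are the samples with the largest and the smallest total count. The part of the sample factor in the level of single markers was not tested. The spread of the markers within a group was wider than counting alone gives, with a median within-group SD of 0.60 on the log2 scale against a median counting SD of 0.31. The within-group SD was taken after the sample factor, so it includes the shift between samples that the low-signal genes share. It is not a measure of spread particular to the markers, and no such SD is given for the low-signal genes.

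The comparison of Atg5BECKO with WT asked whether endothelial deletion of Atg5 went with higher or lower signal of the myeloid markers in the sorted cells. No myeloid marker passed an adjusted p of 0.05 in limma with Benjamini-Hochberg adjustment, either among the 379 genes above the filter, where 0 of 9 markers and 0% of all genes were called, or among all 750 genes, where 0 of 32 markers and 0% of all genes were called. At an unadjusted p under 0.05, 1 of 9 markers was higher and 0 were lower among genes above the filter, against 15.3% and 0.792% of the 379 genes. At the thresholds of the study's methods, a log2 fold change of 0.7 or more in size with an unadjusted p below 0.05, the same 1 marker of 9, Cd14, was higher, against 10.8% of the 379 genes. In the fit over all 750 genes it was 1 of 32 markers, against 5.73%, and at an unadjusted p under 0.05 alone also 1 of 32, against 6.4%. In bulk RNA of this kind, a different number of cells of a type and a different amount of RNA per cell cannot be told apart.

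Cd14, the surface coreceptor through which lipopolysaccharide reaches Toll-like receptor 4, was at 4.98, 4.74 and 5.41 log2 in WT 1, 4 and 6 and at 5.66, 6.41 and 5.97 in Atg5BECKO 2, 3 and 5, from 34, 42 and 22 counts against 56, 83 and 66. Every Atg5BECKO sample was above every WT sample, and the nearest samples, WT 6 and Atg5BECKO 2, were 0.25 apart. The log2 fold change was 0.97 ± 0.27 (SE, n = 3 against 3), a 1.96-fold difference. In limma over the 379 genes p was 0.00966 before and 0.145 after adjustment, and the exact permutation test gave p = 0.1. That is the smallest p that 3 against 3 samples allow. Over all 750 genes limma gave an unadjusted p of 0.0165 and an adjusted p of 0.447, beside the same exact permutation p of 0.1. Cd14 was the only marker of the 32 whose groups did not overlap, while 25.6% of the 379 genes above the filter and 13.7% of all 750 genes were higher without overlap. No marker was lower without overlap, as 2.11% of the 379 genes and 1.6% of the 750 were. In the fit over all 750 genes it left the thresholds of the methods without WT 1 (unadjusted p = 0.0535) and without Atg5BECKO 3 (unadjusted p = 0.0551). It was above the low end of the table in every Atg5BECKO sample and, among the WT samples, in WT 4 alone.

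Csf2rb, the beta chain shared by the receptors for GM-CSF, interleukin 3 and interleukin 5, had the next largest difference. Its log2 level was 6.46, 6.38 and 7.02 in the WT samples and 6.89, 7.81 and 7.15 in the Atg5BECKO samples, from 95, 131 and 67 counts against 132, 219 and 150. The groups overlapped, since WT 6 was above Atg5BECKO 2. The log2 fold change was 0.67 ± 0.30 (SE, n = 3 against 3), with an unadjusted p of 0.0634 and an adjusted p of 0.329 in limma. It met the thresholds of the methods without WT 6, at 0.87, and without Atg5BECKO 2, at 0.86.

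Csf1r, the receptor for CSF1 that macrophages need for survival, was the second highest marker. It was at 6.73, 5.92 and 7.20 log2 in the WT samples and at 6.68, 6.36 and 6.69 in the Atg5BECKO samples, from 115, 95 and 76 counts against 114, 80 and 109. The Atg5BECKO samples lay within the range of the WT samples. The log2 fold change was -0.04 ± 0.34 (SE, n = 3 against 3), with a 95% confidence interval from -0.84 to 0.76, and it was above 0 without WT 1, without WT 6 and without Atg5BECKO 3. Relative to the median of the low-signal genes, Csf1r was nearly level over all 6 samples, between 2.57 and 2.76.

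**Figure D3:**
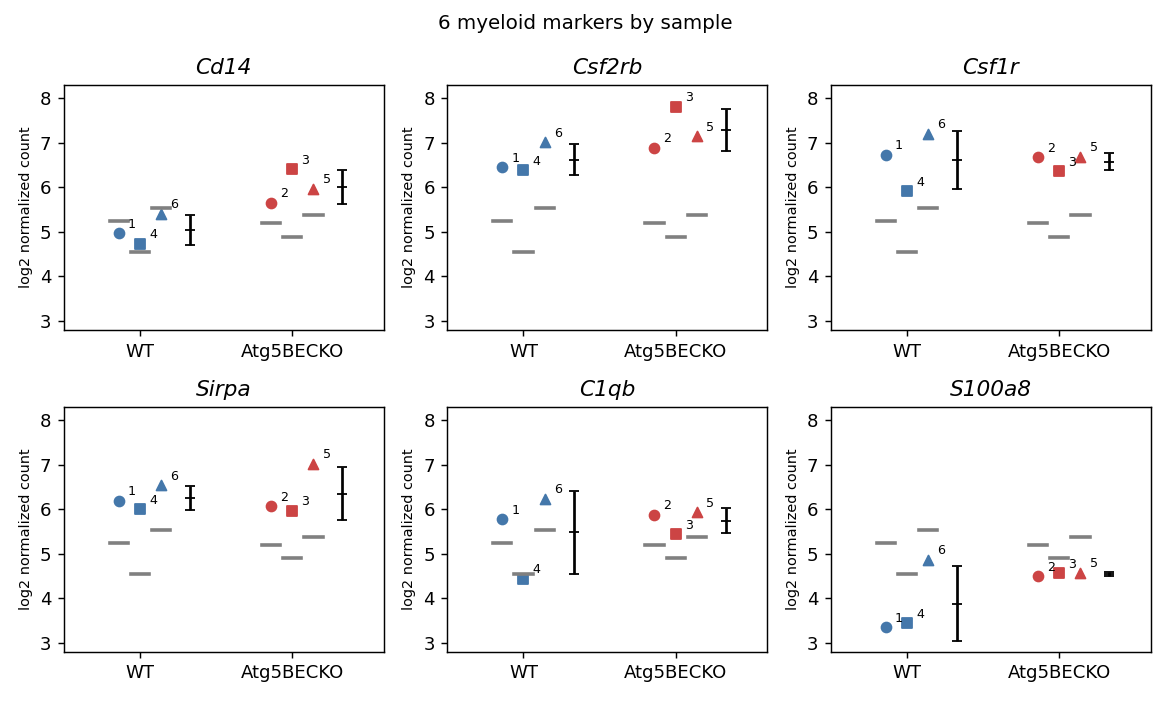
Log2 normalized count of Cd14, Csf2rb, Csf1r, Sirpa, C1qb and S100a8 in each numbered WT sample (blue) and Atg5BECKO sample (red), with the mean and SD of the 3 samples of a group in black and the low end of the table in each sample as a grey bar. The groups are apart only for Cd14, where the highest WT sample is at 5.41 and the lowest Atg5BECKO sample at 5.66.

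The other macrophage markers above the filter overlapped between the groups. Sirpa, an inhibitory receptor that binds CD47, was at 6.19, 6.00 and 6.54 log2 in WT 1, 4 and 6 and at 6.06, 5.97 and 7.02 in Atg5BECKO 2, 3 and 5, with a log2 fold change of 0.11 ± 0.32 (SE, n = 3 against 3). The difference was below 0 without WT 4 and without Atg5BECKO 5, and also under median centring and quantile normalization. C1qb was at 5.77, 4.43 and 6.24 against 5.87, 5.43 and 5.93, and its log2 fold change of 0.26 ± 0.46 fell below 0 without WT 4, at -0.26, and under the same 2 scalings. Cd163, the scavenger receptor for haemoglobin with haptoglobin, was at 5.41, 3.99 and 5.60 against 5.68, 5.17 and 5.71, with 0.52 ± 0.44, and the difference was 0.01 without WT 4. For C1qb and Cd163 alike, WT 4 was the lowest of the 6 samples, and the other 5 lay between 5.43 and 6.24 for C1qb and between 5.17 and 5.71 for Cd163.

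The neutrophil markers above the filter spread over more than 1 log2 unit within the WT group. Trem1, a receptor that amplifies inflammation in neutrophils and monocytes, was at 5.91, 4.39 and 4.95 log2 in the WT samples and at 5.46, 4.95 and 5.63 in the Atg5BECKO samples, with a log2 fold change of 0.26 ± 0.40 (SE, n = 3 against 3) that was -0.09 without WT 4 and -0.12 under median centring. Clec4e, the receptor Mincle, was at 5.75, 4.20 and 6.04 against 5.68, 4.79 and 5.51, and its fold change of -0.00 ± 0.51 had a 95% confidence interval from -1.20 to 1.20. Fpr1, the receptor for bacterial formyl peptides, was at 5.10, 3.43 and 5.65 against 5.49, 5.17 and 5.25, with 0.57 ± 0.54 in all samples and -0.07 without WT 4. In each of the 3 genes WT 4 was the lowest sample and a WT sample the highest.

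Among the markers below the filter, fitted with all 750 genes, the fold changes ran from -0.41 for Arg1, the arginase of alternatively activated macrophages, to 0.66 for S100a8. The adjusted p was at least 0.861 for all 23, and their groups overlapped. S100a8 was at 0.66 ± 0.43 (SE, n = 3 against 3) with an unadjusted p of 0.164, and the fold change was 1.15 with an unadjusted p of 0.00213 and an adjusted p of 0.123 once WT 6 was left out. Its partner S100a9 had -0.08 ± 0.52. Itgam had 0.20 ± 0.52, Itgb2 0.01 ± 0.34, Itgax -0.13 ± 0.53, Cd68 -0.25 ± 0.32 and Mrc1 0.05 ± 0.31. The 95% confidence interval was wide, from -1.02 to 1.43 for Itgam and from -1.37 to 1.10 for Itgax, and a difference of 1 log2 unit in either direction lay within both.

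**Figure D4:**
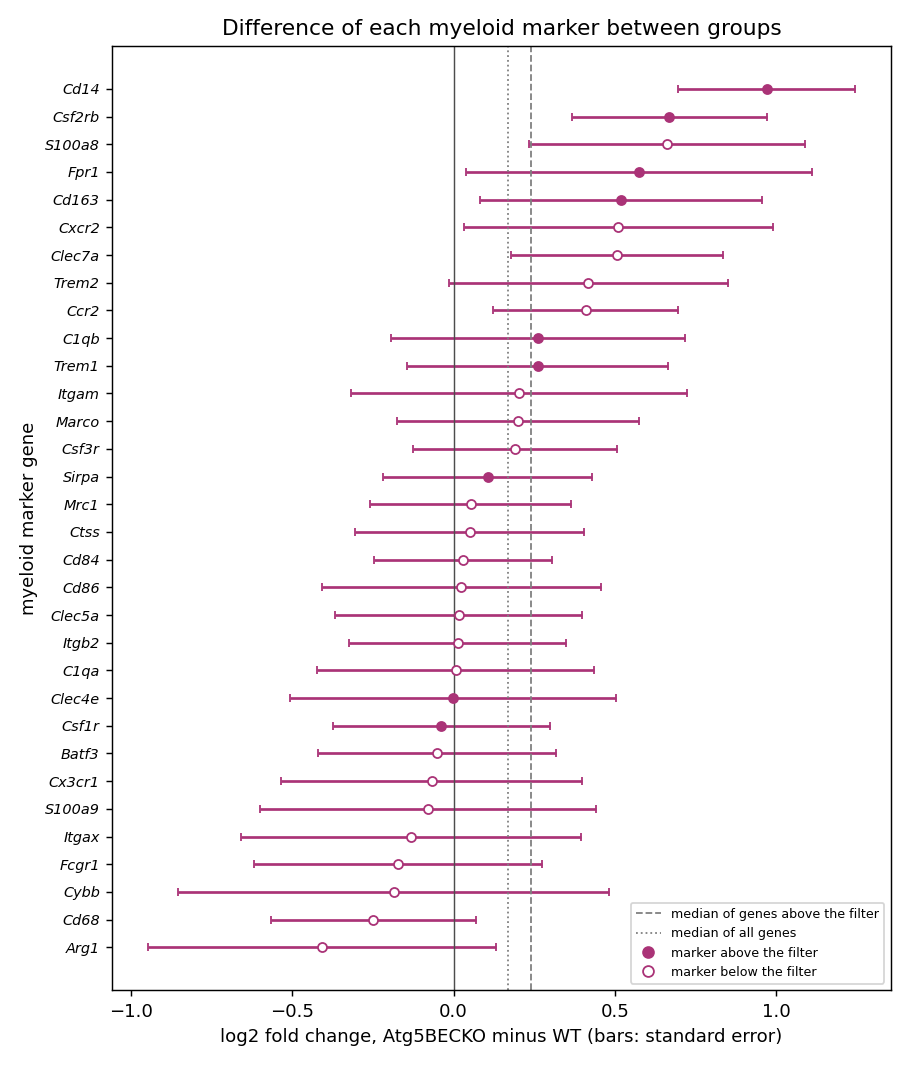
Log2 fold change (Atg5BECKO minus WT, horizontal axis) of each of the 32 myeloid markers with its standard error from limma, filled for the 9 markers above the filter and open for the 23 below it. The dashed and dotted lines are the medians of the genes above the filter, 0.24, and of all genes, 0.17, and the markers lie on both sides of them.

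Over the list, the fold change was above 0 for 22 of the 32 markers and below 0 for 10, and 66.9% of all 750 genes were above 0. The median was 0.05 over the 32 markers, against 0.17 over the 750 genes and 0.07 over the low-signal genes that are not on the list. Over the 9 markers above the filter the median was 0.26, against 0.24 over the 379 genes, and 7 of them were above 0, against 74.4% of the 379. Both medians turned below 0 without WT 4, to -0.16 and -0.07, and rose without WT 6, to 0.36 and 0.64. The medians over the 750 and the 379 genes were -0.06 and 0.11 without WT 4, and 0.34 and 0.34 without WT 6. The median over the 379 genes itself moved to -0.14 under median centring and to -0.02 under quantile normalization, and under these the median of the 9 markers was -0.12 and 0.06.

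By lineage, the median fold change was 0.05 over 16 macrophage and monocyte markers, 0.23 over 8 neutrophil markers, -0.05 over 3 dendritic cell markers and 0.20 over 5 broad myeloid markers. Of the dendritic cell markers, Cd86, a costimulatory ligand of T cells, was at 0.02 ± 0.43 (SE, n = 3 against 3), Batf3, a transcription factor of cross-presenting dendritic cells, at -0.05 ± 0.37 and Itgax at the value above. No lineage held a marker that passed the adjusted threshold, and Cd14, of the macrophage and monocyte markers, was the only one under an unadjusted p of 0.05.

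The panel holds 38 further myeloid genes outside the list, of which 5 were above the filter. All 38 overlapped between the groups, while 13.7% of all 750 genes were higher and 1.6% lower without overlap. Syk, a kinase behind many myeloid receptors, had a mean log2 level of 6.31 in WT and 6.13 in Atg5BECKO, with a fold change of -0.17 ± 0.22 (SE, n = 3 against 3). Lyz1, a lysozyme, had 5.25 and 5.37, Irf8, a transcription factor of monocytes and dendritic cells, 7.02 and 6.94, Fcgr2b, the inhibitory Fc receptor, 5.95 and 5.88, and Cmklr1, the chemerin receptor, 7.12 and 7.11. These 5 genes were above the low end of the table in every sample, and their median fold change was -0.07 with adjusted p from 0.777 upward in limma. Whether their transcripts came from myeloid cells or from the sorted endothelial cells was not tested. Of the other 33, 29 were above the low end in no sample, among them Adgre1, which encodes F4/80 of macrophages, and Ly6g of neutrophils.

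Ptprc, the gene behind the CD45 gate, was at 5.56, 3.35 and 5.20 log2 in WT 1, 4 and 6 and at 5.66, 4.99 and 5.01 in Atg5BECKO 2, 3 and 5, from 51, 16 and 19 counts against 56, 31 and 34. It was above the low end in 3 of 6 samples. Like most myeloid markers it was lowest in WT 4, and its fold change was 0.52 ± 0.58 (SE, n = 3 against 3, adjusted p = 0.938 in limma over all genes). Of 11 fibroblast and mural cell markers 4 were above the filter, and the mean log2 level of the 11 was 4.97 to 5.72 in the WT samples and 4.62 to 5.16 in the Atg5BECKO samples. Of these 11, Thy1, Col6a3 and Olfml2b were lower in Atg5BECKO with no overlap between the groups, with log2 fold changes of -1.10 ± 0.34, -1.54 ± 0.50 and -1.39 ± 0.37 (SE, n = 3 against 3) and adjusted p of 0.167, 0.177 and 0.145 in limma. In limma, these were the 3 genes, 0.792% of the 379, that were lower at the thresholds of the methods. By the methods' t-test, Olfml2b met them (unadjusted p = 0.0329) but Thy1 (unadjusted p = 0.0509) and Col6a3 (unadjusted p = 0.0681) did not. The same was found in limma with a variance that follows intensity. In limma without Atg5BECKO 3, Thy1 (unadjusted p = 0.0509) and Col6a3 (unadjusted p = 0.0659) did not meet the thresholds, nor did Thy1 without Atg5BECKO 5 (unadjusted p = 0.0559). Without WT 6, the adjusted p was 0.0404 for Col6a3 and 0.0473 for Olfml2b. The other 8 overlapped between the groups, Adam12 at -0.07 ± 0.24 above the filter and Vcan at 1.10 ± 0.40 below it. The part of fibroblasts and mural cells in the levels of the myeloid markers was not tested.

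The last question was whether markers of one complex or cell type moved together across the 6 samples. Correlations were computed for 9 pairs, with exact permutation p over 720 pairings and adjustment over the 9 pairs, and every pair shares the sample factor. C1qa and C1qb, which are made together as chains of C1q, had Pearson r = 0.91 (exact permutation p = 0.00278, adjusted p = 0.025) and Spearman rho = 0.94 (exact permutation p = 0.0167, adjusted p = 0.15), and r was 0.98 without WT 4 and Atg5BECKO 3. Csf1r and C1qb had r = 0.96 (exact permutation p = 0.00694, adjusted p = 0.0312) and rho = 0.83 (exact permutation p = 0.0583, adjusted p = 0.262), and r was 0.92 without WT 4 and WT 6. Relative to the median of the low-signal genes of each sample, r was 0.49 for the first pair and 0.42 for the second, and neither passed (adjusted p = 0.59 by the exact permutation test).

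**Figure D5:**
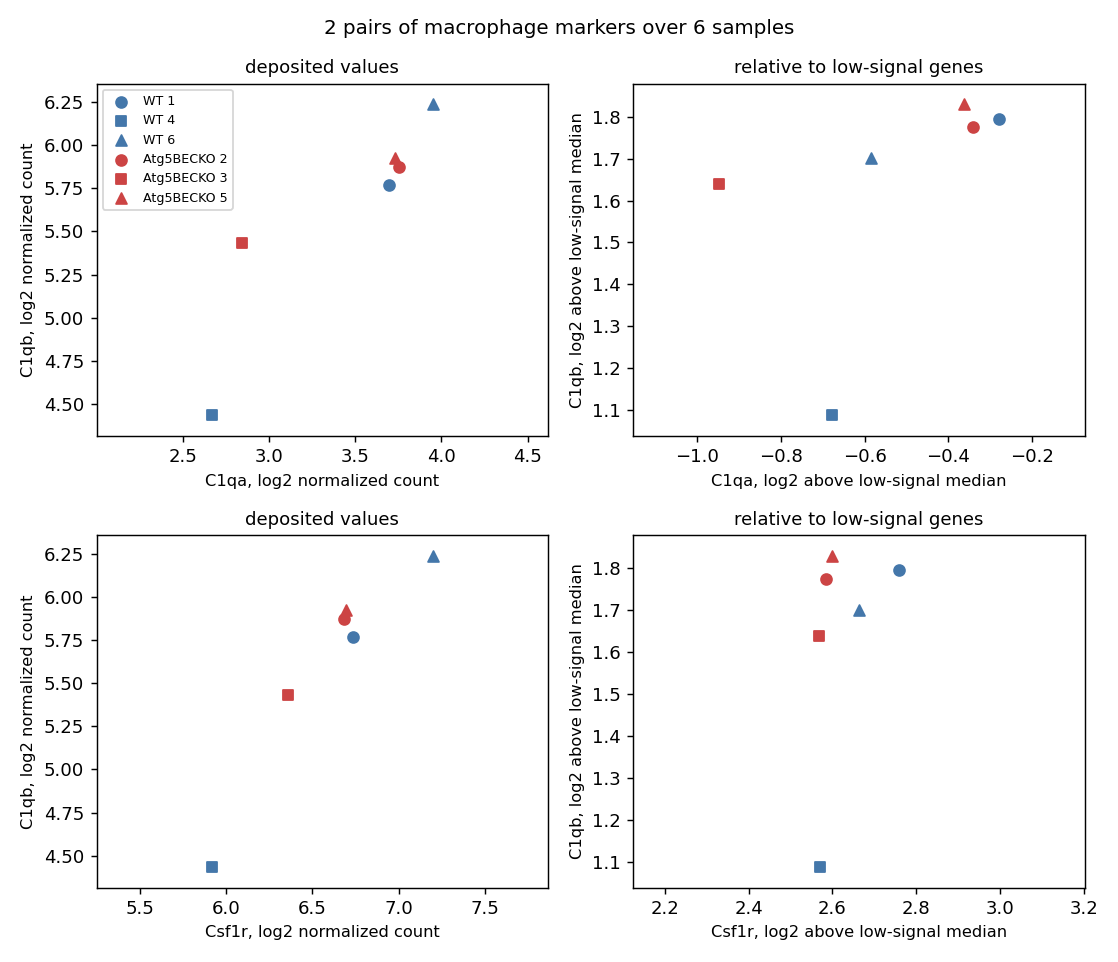
C1qb against C1qa (top) and against Csf1r (bottom) in the 6 samples, on the left as deposited log2 normalized counts and on the right as log2 difference from the median of the low-signal genes of the same sample. On the left the samples run from WT 4 at the lower left to WT 6 at the upper right, with r of 0.91 and 0.96, and on the right r is 0.49 and 0.42.

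The other 7 pairs did not pass after adjustment. Csf1r and Cd163 had r = 0.85 (exact permutation p = 0.0236, adjusted p = 0.0708) and rho = 0.54 (exact permutation p = 0.297, adjusted p = 0.382), with r = 0.78 once WT 4 and WT 6 were left out. With the samples farthest for Cd163 left out, WT 4 and Atg5BECKO 3, r was -0.10. Relative to the low-signal median it was 0.15. Itgam and Itgb2, the 2 chains of the integrin Mac-1, had r = 0.85 (exact permutation p = 0.0486, adjusted p = 0.0875) and rho = 0.60 (exact permutation p = 0.242, adjusted p = 0.362). Itgax and Itgb2 had r = 0.89 (exact permutation p = 0.0375, adjusted p = 0.0844) and rho = 0.77 (exact permutation p = 0.103, adjusted p = 0.308). Both integrin pairs rested on WT 4 and WT 6, without which r was -0.12 and -0.13.

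Trem1 and Clec4e had r = 0.70 (exact permutation p = 0.124, adjusted p = 0.185) and rho = 0.60 (exact permutation p = 0.242, adjusted p = 0.362), and r was 0.18 without WT 1 and WT 4. With the samples farthest for Clec4e left out, WT 4 and Atg5BECKO 3, r was -0.71. S100a8 and S100a9 had r = 0.32 (exact permutation p = 0.504, adjusted p = 0.648) and rho = 0.60 (exact permutation p = 0.242, adjusted p = 0.362), and r was 0.53 without WT 1 and WT 4. Cd14 stood apart from the macrophage receptor Csf1r, with r = 0.18 (exact permutation p = 0.779, adjusted p = 0.861) and rho = -0.03 (exact permutation p = 1.0, adjusted p = 1.0), and r was -0.80 without WT 4 and WT 6, the samples farthest for Csf1r. With those farthest for Cd14 left out, WT 4 and Atg5BECKO 3, r was -0.22. Cd14 and Clec4e had r = 0.11 (exact permutation p = 0.861, adjusted p = 0.861) and rho = -0.09 (exact permutation p = 0.919, adjusted p = 1.0), and r was -0.53 without WT 4 and Atg5BECKO 3.

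Over all 496 pairs of the 32 markers the median r was 0.62, against 0.52 over pairs of low-signal genes that are not on the list and 0.31 over all gene pairs. Relative to the low-signal median of each sample these became 0.06, -0.00 and 0.10. The pairs share genes and samples, so these medians are a description of the 6 samples.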

How the data were processed

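RNA of sorted tumor endothelial cells was counted on a NanoString nCounter immune panel in 3 WT and 3 Atg5BECKO samples, grouped by the sample titles. The deposited values are log2 counts, which the authors scaled in nSolver 4.0, using 16 of 20 housekeeping genes to set 1 factor for each sample, without background subtraction. Whole counts were recovered by finding the factor that made values whole within 0.01, which held for 100% of values. The low-signal filter is the list of 379 genes the study tested. The study's own fold changes and p-values were not used.

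The deposited log2 values were fitted in limma 3.58.1 (R 4.3.3, lmFit and eBayes, 2-sided, Benjamini-Hochberg), once over the 379 genes and once over all 750. Markers above the filter are reported from the first fit and the others from the second. Single genes were also tested by exact permutation of samples, and pairs of genes by exact permutation of 6 values. The script was tested on simulated data. Counting SD is the Poisson SD of the recovered counts on the log2 scale and covers counting error only. Probes differ in efficiency, so a rank in the table orders signals and not transcripts.

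Per-sample values are given for every marker above the filter, for Itgam, Itgax, Itgb2, Cd68, Mrc1, S100a8, S100a9, C1qa, Ctss and Cx3cr1, and for Ptprc. Any other marker with groups that do not overlap and an unadjusted p under 0.05 would have been added. Of the other myeloid genes, up to 5 above the filter with the smallest p are named. The remaining genes named singly, among them Adgre1, Ly6g and the fibroblast markers, were chosen after their values were seen. The markers, lists and pairs were chosen with earlier results of these data known. Alternatives were other filters, scalings, a pseudocount of 10, background subtraction, other variance models, the methods' t-test, voom on recovered counts, other definitions of the low end, and leaving out each sample. Figures were drawn with matplotlib 3.10.9.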

Additional observations from a re-analysis of the deposited data

How the results depend on the processing

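No paired analysis was possible because the sample numbers 1 to 6 are not shared between the groups. No marker passed an adjusted p of 0.05 under any alternative. At the thresholds of the methods, the number of markers called, 1 in both fits, was 0 when only genes averaging 6 or more on the log2 scale were fitted, which leaves Cd14 out, and 0 under median centring, where Cd14 was at 0.59. It was 2 with voom, by Cd14 and Csf2rb, and 1 to 2 above the filter or 0 to 3 over all genes when 1 sample was left out. Cd14 met them in 15 of 16 alternatives of the fit above the filter, with fold changes from 0.59 to 1.48 and adjusted p from 0.0689 to 0.369. Among these, the methods' t-test and limma with a variance that follows intensity gave identical values and are not separate checks. Relative to the low-signal genes, an alternative chosen after the data were seen, Cd14 was at 0.93. The scaling that centres on the endothelial genes and the pseudocount of 10 changed no call.

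Directions turned for 6 of the 9 markers above the filter. Csf1r was at 0.16 with voom, and Clec4e at 0.0062 after background subtraction and 0.31 with voom. C1qb was at -0.12 under median centring and -0.014 under quantile normalization, Trem1 at -0.12 under median centring, and Sirpa at -0.27 and -0.20 under these. With 1 sample left out, the ranges were -0.39 to 0.25 for Csf1r, -0.56 to 0.35 for Clec4e, -0.26 to 0.64 for C1qb, -0.087 to 0.67 for Trem1, -0.073 to 1.04 for Fpr1 and -0.23 to 0.30 for Sirpa. The cause was not tested.

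The number of markers above the low end in every sample was 0 against the maximum of the low-signal genes and 3 to 5 with 1 sample left out. The number of pairs that passed, 2, was 0 under median centring, quantile normalization and centring on low-signal genes. It was also 0 with any 1 sample left out, where 5 samples allow no exact p under 0.00833, too large to pass for a single pair of 9. Without WT 4 and Atg5BECKO 3, r was below 0 for Csf1r and Cd163 (-0.10) and for Trem1 and Clec4e (-0.71). Correlations turned sign for S100a8 and S100a9 (-0.62 under quantile normalization, -0.54 relative to low-signal genes, -0.14 to 0.75 with 1 sample left out), Itgam and Itgb2 (-0.20 relative to low-signal genes, -0.12 without the 2 farthest samples), Itgax and Itgb2 (-0.13 without these), Trem1 and Clec4e (-0.063 under quantile normalization), Csf1r and Cd14 (-0.48, -0.75 and -0.67 under the 3 scalings, -0.80 without the 2 farthest, -0.62 to 0.53 with 1 left out) and Cd14 and Clec4e (-0.41, -0.78 and -0.54, -0.53 without the 2 farthest, -0.82 to 0.56 with 1 left out).

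Counts of 5 to 56 per sample limit the markers below the filter, and WT 6 has the smallest total.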

Other observations

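Cd14 and Csf2rb, the markers with the largest fold changes above the filter, also followed each other across samples. This pair was noticed after the values were seen and is given with all 36 pairs of the 9 markers above the filter. Their Pearson r was 0.96 (exact permutation p = 0.00417, adjusted p = 0.06 over the 36 pairs) and Spearman rho 0.94 (exact permutation p = 0.0167, adjusted p = 0.3), and r was 0.90 without WT 4 and Atg5BECKO 3. Relative to the median of the low-signal genes, r was 0.96 again. WT 4 was the lowest and Atg5BECKO 3 the highest sample for both genes. The 6 values include the difference between the groups, and 3 samples a group are too few for a correlation within one.

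Other pairs joined genes listed here under different lineages. C1qb, made mainly by macrophages, had r = 0.97 with the macrophage receptor Cd163 (exact permutation p = 0.0125, adjusted p = 0.075 over the 36 pairs, rho = 0.83 with exact permutation p = 0.0583 and adjusted p = 0.35) and r = 0.96 with Fpr1 of the neutrophil markers (exact permutation p = 0.00833, adjusted p = 0.06, rho = 0.89 with exact permutation p = 0.0333 and adjusted p = 0.35). Relative to the low-signal median these were 0.90 and 0.91. Without WT 4 and WT 6, r was 0.96 with Cd163 and 0.46 with Fpr1, so the second pair rested on those samples. Cd163 and Fpr1 had r = 0.96 (exact permutation p = 0.0292, adjusted p = 0.0955, rho = 0.71 with exact permutation p = 0.136 and adjusted p = 0.45), 0.87 relative to the low-signal median and 0.48 without WT 4 and Atg5BECKO 3. C1qb and Clec4e had r = 0.95 (exact permutation p = 0.00833, adjusted p = 0.06, rho = 0.77 with exact permutation p = 0.103 and adjusted p = 0.411), 0.80 relative to the low-signal median and 0.87 without WT 4 and WT 6. High r was thus found between genes listed as macrophage and as neutrophil markers as well as within the macrophage list, and no pair of the 36 passed after adjustment. The lists are not exclusive by cell type, so these pairs do not show different lineages moving together. Which cells made these transcripts was not tested. These pairs were picked after their values were seen.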
